A study of Mus musculus with 6 samples.

Results

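The Bcl2 family genes followed here are Bcl2a1a, Bcl2a1b, Bcl2a1d, Bcl2, Bcl2l1, Mcl1, Bax, Bak1, Bcl2l11, and Bbc3. They were picked out by gene symbol, and all 10 were found among the 32287 genes listed for every library. They were measured in microglia, endothelial cells, and mural cells of brain microvessels from 3 WT mice (C57BL/6J) and 3 TgAppArcSwe mice, which carry a human APP transgene with the Arctic and Swedish mutations and form amyloid plaques and vascular amyloid. All 6 mice were male, untreated, and 12 months old, and each gave a separate library from a cerebral hemisphere. Their microvessel fragments were captured with magnetic beads against CD31, a surface protein of endothelial cells, digested to single cells, and sequenced as 1 droplet 3' library per mouse with unique molecular identifiers (UMIs). The promoter that drives the transgene is not given in the sources used here, and microglia entered these preparations only as far as they came along with the captured vessel fragments.

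Bcl2 family proteins decide whether the outer membrane of the mitochondrion is opened in apoptosis. Bax and Bak1 form the pores that let cytochrome c out, and Bcl2, Bcl2l1 (Bcl-xL), Mcl1, and the Bcl2a1 proteins (A1) hold them back. BH3-only proteins such as Bcl2l11 (Bim) and Bbc3 (Puma) bind the guardians and thereby set off the effectors. In the mouse, A1 is encoded by several near-identical genes, is typical of blood and immune cells, and is a known target of NF-kB, whereas Bcl2l1 and Mcl1 are used by nearly all cells.

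The 3 A1 genes lie on chromosome 9 in GRCm38. Bcl2a1d spans chr9:88723285-88731914 on the minus strand, Bcl2a1a spans chr9:88956900-88962419 on the plus strand, and Bcl2a1b spans chr9:89199209-89207827 on the plus strand. The start of their coding sequences is shown because it carries 7 of the 12 positions, of 516 coding bases, at which the 3 genes differ. The capitals mark those 7 positions in coding bases 1 to 120 of the annotated transcripts (GENCODE, GRCm38), written 5' to 3' on the strand of each gene. The stretches lie at chr9:88957051-88957170 (plus) for Bcl2a1a, chr9:89199360-89199479 (plus) for Bcl2a1b, and chr9:88731600-88731719 (minus) for Bcl2a1d.
Bcl2a1a: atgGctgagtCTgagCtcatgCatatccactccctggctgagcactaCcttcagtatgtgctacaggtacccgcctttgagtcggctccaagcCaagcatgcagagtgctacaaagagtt
Bcl2a1b: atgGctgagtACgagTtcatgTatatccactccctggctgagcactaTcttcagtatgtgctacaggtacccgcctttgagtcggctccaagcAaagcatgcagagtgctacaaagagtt
Bcl2a1d: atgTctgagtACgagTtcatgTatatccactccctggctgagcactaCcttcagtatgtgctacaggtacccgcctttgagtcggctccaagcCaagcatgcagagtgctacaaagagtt
Over the whole coding sequence, Bcl2a1a and Bcl2a1b were 97.9% identical, Bcl2a1d and Bcl2a1b 98.8%, and Bcl2a1a and Bcl2a1d 98.6%. A read can be assigned to one paralog only where it covers a difference. Of the windows of 90 bases in the last 400 bases of the transcript, where a 3' library reads, 73.0% of those of Bcl2a1a, 65.9% of those of Bcl2a1b, and 39.2% of those of Bcl2a1d were unlike every other paralog. Reads that match several genes are not counted by the counting software, so the 3 paralogs were read with unequal yield, their levels cannot be ranked against each other, and every division of reads among them is uncertain. A comparison of 1 paralog between mice or cell types keeps the same windows on both sides.

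The stretches just before their RefSeq starts (GRCm38.p6) are shown for the element in which they differ. The capitals mark copies of GAGGAA on the strand of the gene, the core letters bound by PU.1, a transcription factor of the myeloid lineage. The stretches lie at chr9:88956780-88956897 (plus) for Bcl2a1a, chr9:89199089-89199206 (plus) for Bcl2a1b, and chr9:88731873-88731984 (minus) for Bcl2a1d.
Bcl2a1a: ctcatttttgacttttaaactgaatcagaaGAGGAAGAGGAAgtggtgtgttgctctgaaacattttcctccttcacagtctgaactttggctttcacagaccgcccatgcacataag
Bcl2a1b: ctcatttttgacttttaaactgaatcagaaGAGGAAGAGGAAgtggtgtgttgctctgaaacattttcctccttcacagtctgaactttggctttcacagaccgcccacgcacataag
Bcl2a1d: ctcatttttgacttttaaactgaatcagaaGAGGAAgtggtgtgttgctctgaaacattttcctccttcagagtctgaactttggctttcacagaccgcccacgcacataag
The stretches of Bcl2a1a and Bcl2a1b were 99.2% identical and held 2 adjacent copies, while that of Bcl2a1d held 1 copy and was 94.1% identical to that of Bcl2a1b. GAGGAA on either strand was present in 28.3% of 32851 promoters of 300 bases (250 before to 50 after the start), and the double copy GAGGAAGAGGAA in 0.128%. Counted on both strands of that window, Bcl2a1a had 3 copies, Bcl2a1b 4, and Bcl2a1d 2. Of the other members, Bcl2 and Bak1 had 1 copy each, and the letters were not found in the windows of Bcl2l1, Bcl2l11, Mcl1, Bax, or Bbc3. A match of letters is a description and does not show binding.

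The libraries held 26436229 to 59161203 UMIs and 44112 cells after filtering, of 49059 deposited. Clusters were formed without the Bcl2 family genes and named by marker genes, which gave 6871 microglia, 24721 endothelial cells, and 4250 mural cells. Of the cells kept, 516 carried a barcode that also occurred in another library. UMIs were summed per mouse and class, at 569507 to 5598909 UMIs for microglia, 10650714 to 23916549 for endothelial cells, and 1780827 to 6599908 for mural cells, and are given as CPM, the counts of a gene scaled to 1000000 UMIs of the class. The microglia of WT replicate 3 stood apart from those of the other WT mice: low-ribosomal microglia, clusters with a median ribosomal protein share under 3%, made up 94.5% of its microglia, against 25.3% and 31.2% in WT replicates 1 and 2, and 67.4%, 93.3%, and 76.3% in TgAppArcSwe mice. Low-ribosomal microglia were 4522 of the 6871, in 2 clusters with medians of 1179 and 1202 UMIs per cell. In their methods, the authors removed a microglial cluster low in ribosomal and high in mitochondrial genes. Low-ribosomal clusters were kept here unless stated otherwise. Microglia of TgAppArcSwe replicate 2 were the fewest, at 224 cells. The RNA of other cells was also shared out unequally: over 7 endothelial markers, the median level in microglia was 3.39%, 2.96%, and 16.0% of that in endothelial cells in WT mice, and 5.35%, 3.42%, and 13.4% in TgAppArcSwe mice.

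The A1 paralogs differed most between microglia and vascular cells of all members, and were higher in microglia in all 6 mice. Bcl2a1b stood at 404, 418, and 116 CPM in the microglia of WT mice, and at 589, 434, and 568 CPM in those of TgAppArcSwe mice. In endothelial cells it stood at 1.82, 1.98, and 4.07 CPM in WT mice, and at 4.22, 0.845, and 22.6 CPM in TgAppArcSwe mice. The lowest microglial value was above the highest endothelial value. In mural cells the paralogs together gave 201 UMIs over all 6 mice, against 10701 in microglia. The log2 difference between microglia and endothelial cells was 6.82 ± 0.51 (SE) for Bcl2a1b, 6.52 ± 0.29 for Bcl2a1a, and 7.28 ± 0.34 for Bcl2a1d. Each passed edgeR's quasi-likelihood test with the mouse as a block and Benjamini-Hochberg adjustment, at adjusted p = 8.5e-09, 3.56e-11, and 5.61e-11. Against mural cells, the log2 differences were 6.64 ± 0.54, 5.96 ± 0.37, and 7.35 ± 0.46, also past the threshold.

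The small endothelial and mural level of the paralogs is set here beside that of microglial markers. The summed paralogs in endothelial cells stood at 0.433%, 0.480%, and 3.21% of their microglial level in WT mice, and at 0.652%, 0.221%, and 3.49% in TgAppArcSwe mice. In the same cells, 7 microglial markers had a median of 0.380%, 0.478%, and 2.87% of their microglial level in WT mice, and 1.61%, 0.485%, and 5.95% in TgAppArcSwe mice. On this scale, relative to the microglia of the same mouse, WT replicate 3 and TgAppArcSwe replicate 3 were highest for the paralogs and for the markers alike. As a level in endothelial cells, the summed paralogs stood at 1.92, 2.20, and 4.58 CPM in WT mice and at 4.89, 1.13, and 26.0 CPM in TgAppArcSwe mice, so that TgAppArcSwe replicate 3 stood apart and WT replicate 3 lay just under TgAppArcSwe replicate 1. In mural cells, relative to microglia of the same mouse, the paralogs stood at 2.09% and 2.99% in those mice and at 0% to 0.882% in the other 4. Endothelial cells in which Aif1 or Cx3cr1, markers of microglia, had any UMI had been left out, from 153 cells in TgAppArcSwe replicate 2 to 2469 in TgAppArcSwe replicate 3. The part of microglial RNA in these levels was not tested further.

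**Figure D1:**
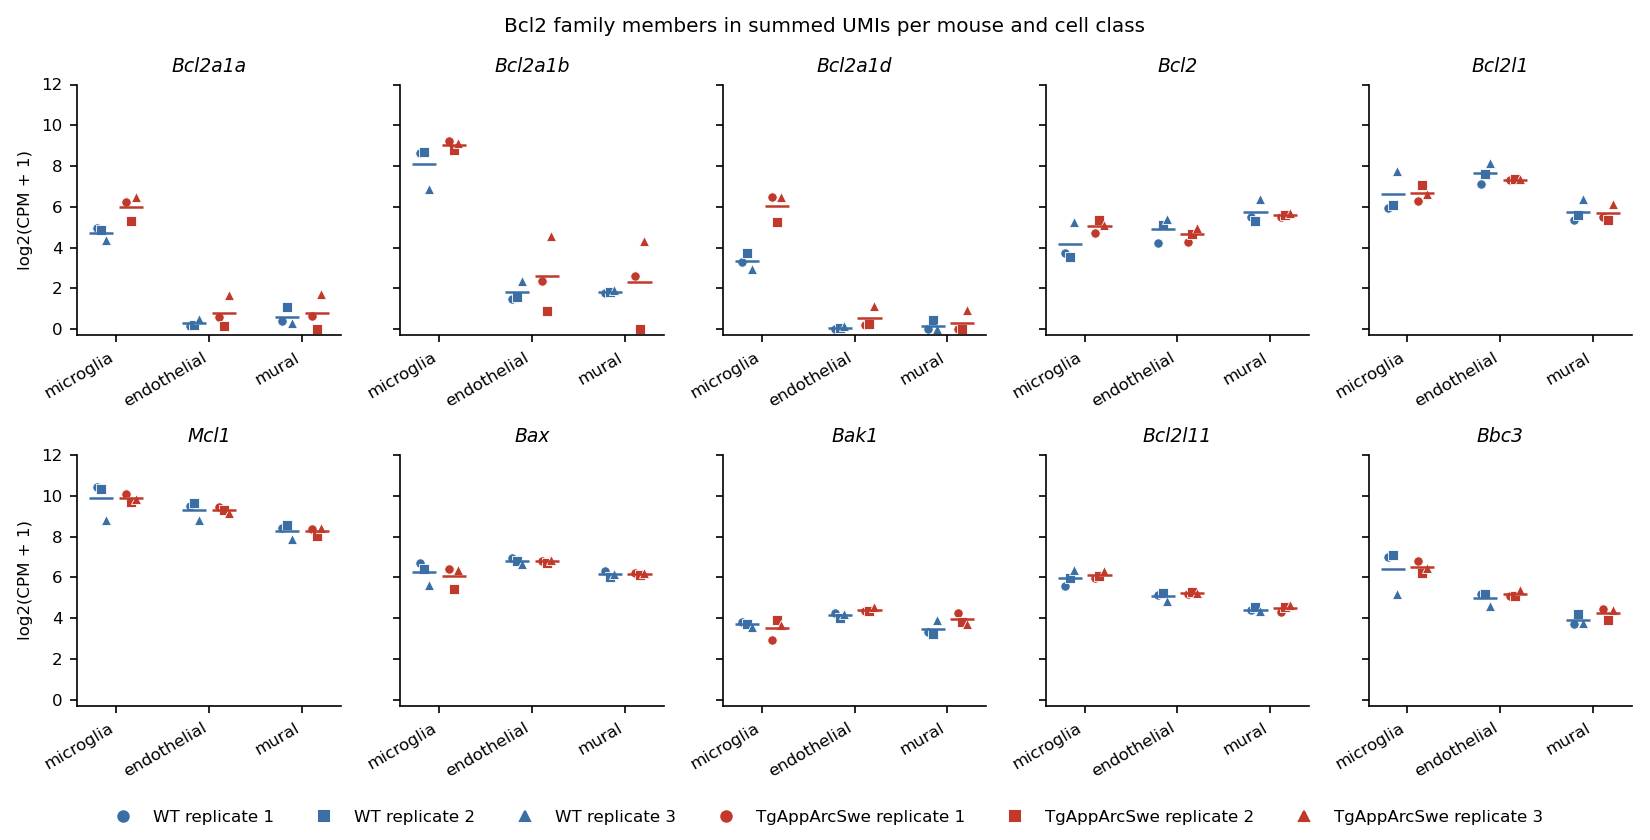
Each panel plots log2(CPM + 1) of a member in summed UMIs per mouse for microglia, endothelial cells, and mural cells, with WT mice in blue, TgAppArcSwe mice in red, a symbol per replicate, and bars at the group means. Bcl2a1b lies between 116 and 589 CPM in microglia and at 22.6 CPM or below in endothelial cells, while Bcl2l1 is highest in endothelial cells and Bcl2 in mural cells.

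Among the other guardians, Bcl2l1 was the one highest in endothelial cells when the classes were compared. It stood at 140, 193, and 287 CPM in the endothelial cells of WT mice and at 156, 162, and 164 CPM in those of TgAppArcSwe mice. In microglia the values were 61.3, 67.9, and 215 CPM in WT mice and 78.2, 132, and 99.5 CPM in TgAppArcSwe mice. Each mouse had less in its microglia than in its endothelial cells, and less again in its mural cells, where Bcl2l1 ranged from 39.9 to 81.8 CPM. Microglia were lower than endothelial cells by a log2 difference of -0.78 ± 0.14 (adjusted p = 9.46e-05, edgeR), and mural cells by -1.63 ± 0.14 (adjusted p = 6.67e-08). WT replicate 3, the mouse with the highest microglial Bcl2l1, also had the highest endothelial marker share in its microglia, at 16.0%, and the part of that RNA in its value was not tested.

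Mcl1, a short-lived guardian of almost all cell types, went the other way between microglia and endothelial cells. Its level in microglia was 1394, 1301, and 451 CPM in WT mice and 1089, 831, and 902 CPM in TgAppArcSwe mice. In endothelial cells it was 728, 806, and 444 CPM in WT mice and 688, 630, and 572 CPM in TgAppArcSwe mice. WT replicate 3 had the lowest level in both classes, and there the classes barely differed. Microglia were higher than endothelial cells by 0.66 ± 0.14 on the log2 scale (adjusted p = 0.000678, edgeR) and higher than mural cells by 1.54 ± 0.15 (adjusted p = 1.37e-07). Mcl1 is an immediate response gene in many cells, and the 11 genes of a list of dissociation stress (among them Fos, Jun, and Egr1) summed to 38263, 39211, and 10014 CPM in the microglia of WT mice and to 26959, 17243, and 17493 CPM in those of TgAppArcSwe mice. The mouse with the least Mcl1 thus had the least RNA of that list, and the part of dissociation in the level was not tested.

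Bcl2, the guardian after which the family is named, was the one gene of the 10 that was higher in mural cells than in both other classes. Its level in mural cells was 44.8, 38.2, and 82.4 CPM in WT mice and 43.5, 47.2, and 51.4 CPM in TgAppArcSwe mice. In endothelial cells the values were 17.4, 33.6, and 41.0 CPM in WT mice and 18.6, 24.7, and 30.6 CPM in TgAppArcSwe mice. Mural cells were above endothelial cells in 6 of 6 mice, with a log2 difference of 1.04 ± 0.21 (adjusted p = 0.000517, edgeR). Microglia were below mural cells by -1.15 ± 0.24 (adjusted p = 0.000388) and did not differ detectably from endothelial cells, at -0.11 ± 0.23 with a 95% interval of -0.60 to 0.38. Without the DAM-like cluster of microglia described further on, the latter was -0.53 (adjusted p = 0.0141).

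The effectors Bax and Bak1 differed little between the classes. Bax stood at 123, 109, and 98.0 CPM in the endothelial cells of WT mice and at 111, 103, and 114 CPM in those of TgAppArcSwe mice, against 42.1 to 103 CPM in microglia and 63.9 to 78.9 CPM in mural cells. Bak1 stood at 18.1, 15.0, and 17.4 CPM in the endothelial cells of WT mice and at 19.5, 19.1, and 21.9 CPM in those of TgAppArcSwe mice, against 6.69 to 14.0 CPM in microglia. Both were lower in microglia than in endothelial cells, by -0.47 ± 0.15 for Bax (adjusted p = 0.00879, edgeR) and by -0.60 ± 0.17 for Bak1 (adjusted p = 0.00568). Without the low-ribosomal clusters of microglia neither call was kept, at -0.04 ± 0.09 for Bax (adjusted p = 0.794) and -0.33 ± 0.17 for Bak1 (adjusted p = 0.0916). Against mural cells, microglia had a log2 difference of 0.01 ± 0.15 for Bax and -0.18 ± 0.20 for Bak1, neither past the threshold. The Bax value depended on the microglia taken, at 0.44 without low-ribosomal clusters (adjusted p = 0.000829, edgeR) and -0.90 in low-ribosomal clusters alone (adjusted p = 2.9e-06).

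The BH3-only members Bbc3 and Bcl2l11 followed the guardian Mcl1 in being highest in microglia when the classes were compared. Bbc3, a gene that p53 can induce, stood at 126, 134, and 35.6 CPM in the microglia of WT mice and at 112, 72.0, and 85.4 CPM in those of TgAppArcSwe mice. It ranged from 23.5 to 40.6 CPM in endothelial cells and from 12.0 to 21.0 CPM in mural cells. All 6 mice had this order, and the log2 difference was 1.54 ± 0.18 between microglia and endothelial cells (adjusted p = 1.67e-06, edgeR) and 2.44 ± 0.21 between microglia and mural cells (adjusted p = 3.45e-08). Bcl2l11, whose product binds all guardians of the family, stood at 47.0, 62.4, and 81.5 CPM in the microglia of WT mice and at 60.8, 65.0, and 79.3 CPM in those of TgAppArcSwe mice. Its ranges were 27.9 to 37.9 CPM in endothelial cells and 18.8 to 24.2 CPM in mural cells, which did not overlap with each other or with microglia. The log2 difference was 1.01 ± 0.11 between microglia and endothelial cells (adjusted p = 4.95e-07) and 1.59 ± 0.12 between microglia and mural cells (adjusted p = 8.51e-09).

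Counted over the 10 members, 9 passed the test between microglia and endothelial cells, 6 higher and 3 lower in microglia, beside 76.9% of all 13543 genes tested (36.4% higher and 40.5% lower). Between microglia and mural cells 8 passed, 7 higher and 1 lower, beside 77.1% of all genes (37% higher and 40.1% lower). Between mural and endothelial cells 7 passed, 1 higher and 6 lower in mural cells, beside 63% of all genes (31.4% higher and 31.6% lower). With most genes differing between cell classes, these shares do not set the members apart from other genes. The 6 members lower in mural than in endothelial cells were Bcl2l1, Mcl1, Bbc3, Bcl2l11, Bax, and Bak1, with log2 differences from -1.63 for Bcl2l1 to -0.42 ± 0.17 for Bak1. The call on Bak1 (adjusted p = 0.0389, edgeR) was lost, with values of -0.35 to -0.42, without WT replicate 1, WT replicate 2, TgAppArcSwe replicate 2, or TgAppArcSwe replicate 3.

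The rest of the family, a list of 15 genes of which 11 passed the filter, split by gene in the same contrasts. Between microglia and endothelial cells, 4 were higher in microglia and 7 lower. Bid, which links death receptors to the mitochondrion, was higher by 3.23 ± 0.26 on the log2 scale, Bmf, a BH3-only gene, by 3.24 ± 0.27, and Pmaip1 (Noxa), whose product acts on Mcl1, by 1.10 ± 0.14. Bok, an effector like Bax and Bak1, was lower by -3.44 ± 0.30, Bik by -1.68 ± 0.22, and the guardian Bcl2l2 (Bcl-w) by -1.46 ± 0.26. Bcl2l2 was highest in mural cells, 1.35 ± 0.19 above endothelial cells, which it shared with Bcl2. Pmaip1 was lower in mural cells than in endothelial cells by -2.81 ± 0.19. Downstream of the membrane, 12 of 16 genes of the mitochondrial pathway differed between microglia and endothelial cells, 4 higher and 8 lower in microglia, with the apoptosome gene Apaf1 at 1.27 ± 0.10. Of 9 death receptor genes, 4 were higher and 2 lower in microglia, the lower ones being the receptors Fas (-3.30 ± 0.26) and Tnfrsf10b (-3.68 ± 0.33). Of 10 genes on a list of p53 and its targets, 9 were tested, with 3 higher and 4 lower in microglia.

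Over the finer cell types, the members differed in their order along the vessel, and immune cells had a separate order. The mean level of Bcl2l1 over 6 mice was 225 ± 64.6 CPM (SD) in arterial endothelial cells, 185 ± 50.2 in capillary, 122 ± 54.1 in venous, and 79.0 ± 40.2 in fenestrated endothelial cells, and 49.2 ± 14.8 in smooth muscle cells. Arterial cells were above capillary cells in 6 of 6 mice. Mcl1 ran the other way by mean, at 530 ± 60.2 CPM in arterial, 629 ± 125 in capillary, and 704 ± 182 in venous cells. Bcl2l11 also had a higher mean in venous cells (41.1 ± 11.6 CPM) than in arterial cells (25.1 ± 3.36). Its highest mean was in T or NK cells, at 137 ± 25.4 CPM, with DAM-like microglia next at 114 ± 73.1 over 3 mice. Bcl2, Bax, Bak1, and Bbc3 had lower means in venous than in arterial cells. Bcl2 was highest in T or NK cells, at 579 ± 319 CPM, above B cells at 107 ± 50.0 in 6 of 6 mice, and B cells were above pericytes at 62.3 ± 30.8 in 6 of 6 mice. Pericytes and smooth muscle cells, the latter at 50.0 ± 15.0, did not differ beyond their spread. Mcl1 was highest in intact microglia (5 mice with enough cells), at 1125 ± 390 CPM, and lowest in pericytes, smooth muscle cells, and T or NK cells, whose means of 310 to 321 CPM overlapped. Bbc3 was highest in intact microglia at 109 ± 43.6 CPM, followed by the other microglial states, and low-ribosomal microglia at 75.8 ± 24.8 were above every named endothelial group by mean. Bax was flat by comparison, from 130 ± 14.6 CPM in fenestrated endothelial cells to 67.6 ± 6.15 in smooth muscle cells, with the exception of low-ribosomal microglia, at 39.8 ± 10.2 and below smooth muscle cells in 6 of 6 mice. No test was made of these orders.

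**Figure D2:**
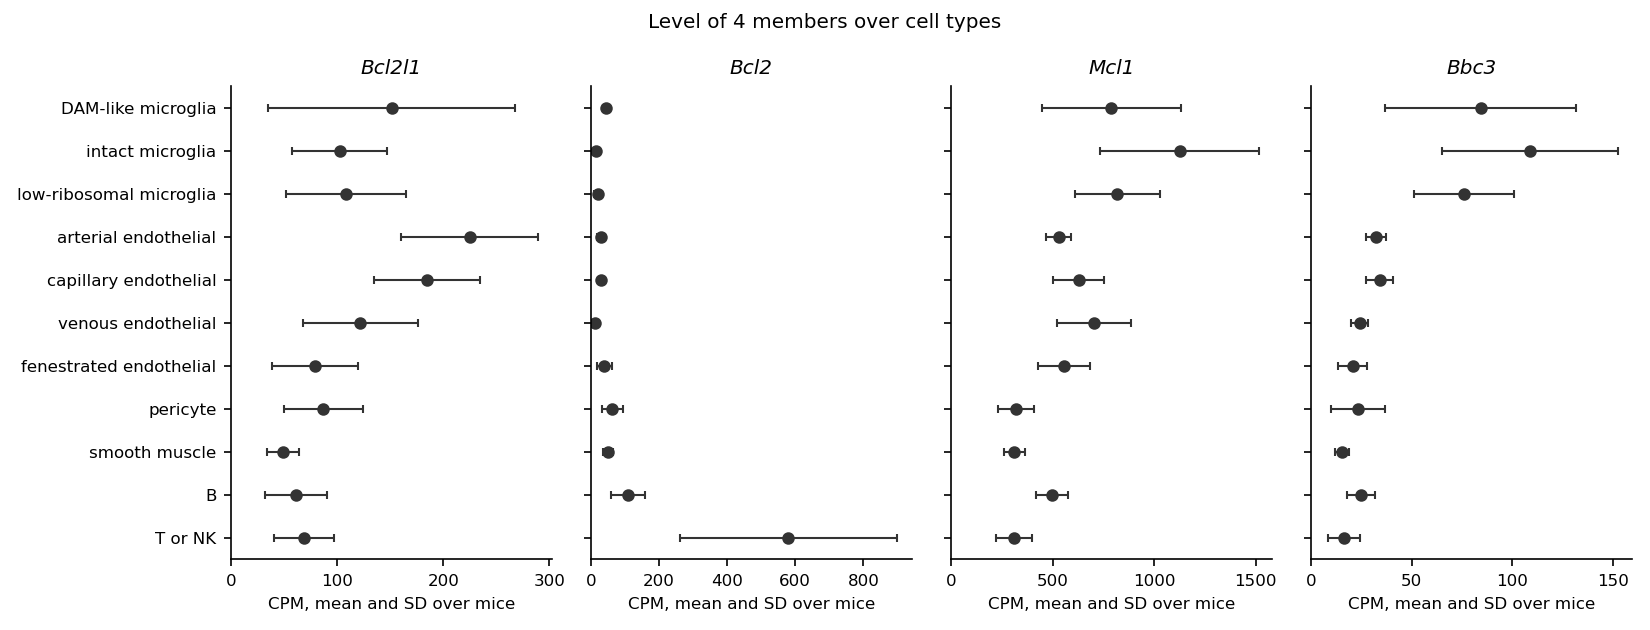
The plot gives the mean level with its SD over mice, in CPM on a linear axis from 0, of Bcl2l1, Bcl2, Mcl1, and Bbc3 in 11 cell types with at least 20 cells in 3 to 6 mice. Bcl2l1 falls from 225 CPM in arterial endothelial cells to 49.2 in smooth muscle cells, Bcl2 stands at 579 CPM in T or NK cells, and Mcl1 and Bbc3 peak in intact microglia.

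The summed A1 paralogs were highest in microglia with markers of disease-associated microglia (DAM-like), at 1055 ± 390 CPM over 3 mice, then in intact microglia at 456 ± 127 over 5 mice and in low-ribosomal microglia at 236 ± 85.3 over 6 mice. Of 694 DAM-like cells, 590 were in a cluster led by Ccl3, Cxcl10, Ccl4, Lyz2, and Tnf, ahead of Cst7 and Trem2. The other 104 were in a cluster led by Tyrobp, Lyz2, Trem2, and Cst7. Ccl3, Ccl4, and Tnf are also on the list of NF-kB targets used further on. Lymphocytes also carried them, T or NK cells at 212 ± 83.5 CPM and B cells at 98.4 ± 41.9. Pericytes followed at 11.8 ± 12.6 CPM, and from there down to venous endothelial cells at 4.61 ± 7.37 the neighbours in the order did not differ beyond their spread. Low-ribosomal microglia were above T or NK cells in 4 of 6 mice. Over 74 sums of a mouse and cell type, in 17 cell types and among 14131 genes, the profiles of log2(CPM + 1) most like that of the summed paralogs were those of Rgs1 (Pearson r = 0.960), Tnfaip8l2 (0.956), Evi2a (0.951), Ccl4 (0.941), and Ptprc (0.940), the gene of the leukocyte antigen CD45. The profiles most like Bcl2l1 were Ptprm (0.807), Rhobtb1 (0.800), Exoc6b (0.792), Phactr1 (0.769), and Far2 (0.763). The sums of a mouse share a library, and these likenesses are descriptive.

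The division of A1 UMIs among the paralogs changed with the cell type. Of the paralog UMIs of intact microglia, 90.7% were Bcl2a1b, 6.62% Bcl2a1a, and 2.69% Bcl2a1d. DAM-like microglia had 73.1% Bcl2a1b, 13.5% Bcl2a1a, and 13.4% Bcl2a1d. These percents pool the mice, and 1431 of 1655 intact microglia came from WT mice and 651 of 694 DAM-like microglia from TgAppArcSwe mice. Within TgAppArcSwe mice, Bcl2a1d took 4.97% in intact and 13.6% in DAM-like microglia, and Bcl2a1a 8.04% and 13.3%. Within WT mice, Bcl2a1d took 2.33% and 7.64%, the latter from 12 of 157 UMIs, 9 of them in WT replicate 3. Lymphocytes had much Bcl2a1d and hardly any Bcl2a1a: B cells had 14.4% Bcl2a1d (38 of 263 UMIs, exact 95% binomial interval 10.4% to 19.3%) and 0.760% Bcl2a1a (2 UMIs), and T or NK cells had 21.0% Bcl2a1d (56 of 267, 16.2% to 26.4%) and 1.12% Bcl2a1a (3 UMIs). Cells of the monocyte or dendritic cluster had 40.7% Bcl2a1d (74 of 182, 33.5% to 48.2%) and 14.8% Bcl2a1a. These intervals cover counting error only and pool the mice, of which TgAppArcSwe replicate 2 had no cell in the monocyte or dendritic cluster. Since the paralogs are read with unequal yield, a percentage is not a share of transcripts. Its comparison between cell types also depends on the mix of the other paralogs.

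**Figure D3:**
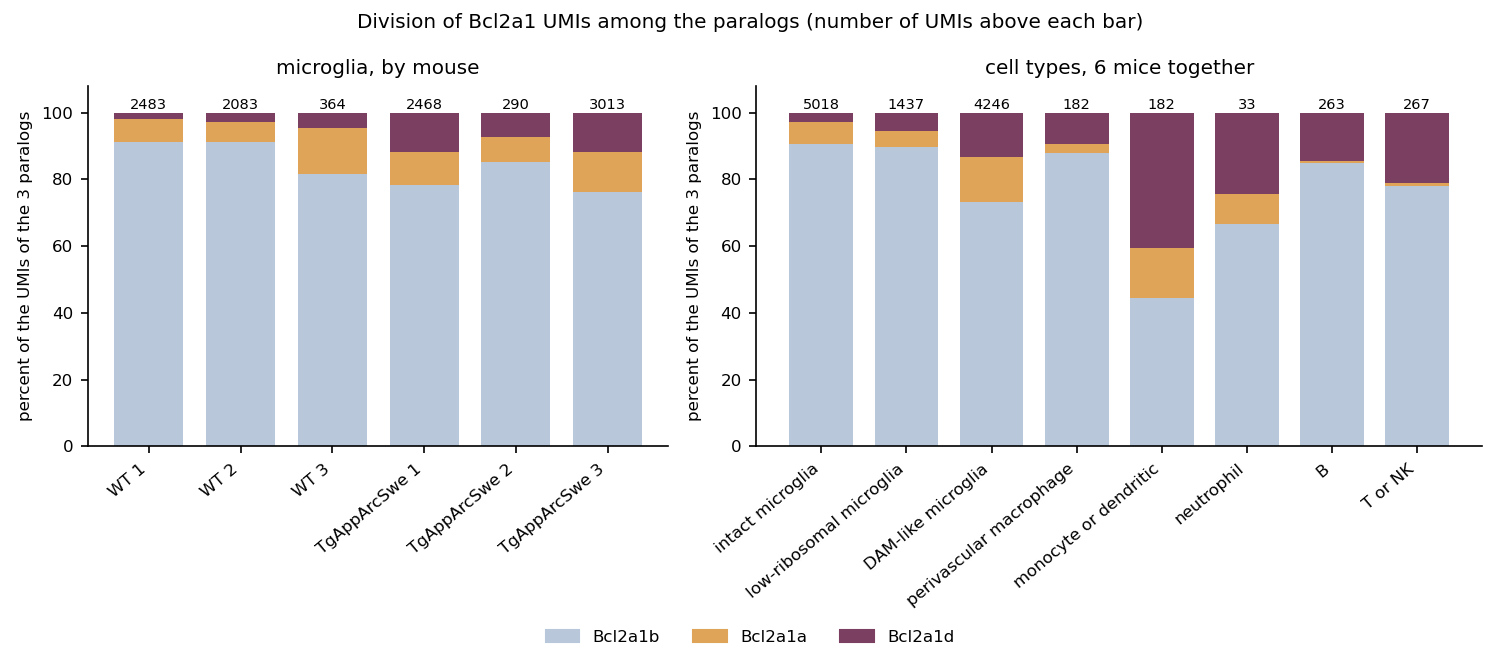
Stacked bars give the percent of the UMIs of the 3 paralogs that fall to Bcl2a1b, Bcl2a1a, and Bcl2a1d in the microglia of each mouse (left) and in 8 immune cell types with the 6 mice together (right), with the number of UMIs above each bar. Bcl2a1d takes 2.69% in intact microglia, mostly from WT mice, 13.4% in DAM-like microglia, mostly from TgAppArcSwe mice (4.97% and 13.6% within TgAppArcSwe mice), 14.4% in B cells, 21.0% in T or NK cells, and 40.7% in the monocyte or dendritic cluster.

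Between genotypes, the 3 paralogs were higher in the microglia of every TgAppArcSwe mouse than in those of any WT mouse. Bcl2a1d stood at 8.93, 12.1, and 6.66 CPM in WT mice (50, 55, and 17 UMIs) and at 87.6, 36.9, and 86.9 CPM in TgAppArcSwe mice (288, 21, and 352 UMIs). Bcl2a1a stood at 30.5, 27.9, and 19.6 CPM in WT mice and at 74.2, 38.6, and 88.9 CPM in TgAppArcSwe mice. TgAppArcSwe replicate 2, with the fewest microglia, was the lowest of its group for all 3 genes, and WT replicate 3 the lowest of the WT mice. The log2 fold change was 3.07 ± 0.40 for Bcl2a1d (8.42-fold, adjusted p = 0.0677), 1.52 ± 0.34 for Bcl2a1a (2.88-fold, adjusted p = 0.206), and 0.85 ± 0.48 for Bcl2a1b (1.80-fold, adjusted p = 0.714) in edgeR's quasi-likelihood test over 11182 genes. No member passed, beside 0.0537% of all genes (0.0447% higher and 0.00894% lower, 6 genes together). At an unadjusted p under 0.05 there were 2 members, Bcl2a1d and Bcl2a1a, beside 907 of the 11182 genes in edgeR's test. The same pair passed DESeq2's Wald test (adjusted p = 6.55e-10 and 0.00942), which called 136 genes in all. Non-overlapping genotypes, seen in 3 of 10 members and in each case with TgAppArcSwe mice higher, occurred in 17.8% of all genes and with TgAppArcSwe mice higher in 5.87%. With the counts of the 3 paralogs added as 1 row, which does not depend on how reads were divided among them beyond those dropped, the log2 fold change was 1.03 ± 0.47. The same sum gave 1.95 ± 0.91 in endothelial cells and 1.75 ± 0.84 in mural cells. There, 601 of 887 endothelial and 147 of 201 mural UMIs came from TgAppArcSwe replicate 3.

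The makeup of the microglia differed between the mice together with these values. DAM-like cells numbered 8, 11, and 24 in WT mice and 165, 8, and 478 in TgAppArcSwe mice, or 0.870%, 0.990%, and 4.55% of microglial UMIs against 36.3%, 14.4%, and 48.8%. In TgAppArcSwe mice, these cells held 84.0%, 61.9%, and 85.8% of the microglial Bcl2a1d UMIs, 78.3%, 81.8%, and 92.8% of those of Bcl2a1a, and 62.2%, 40.9%, and 73.1% of those of Bcl2a1b. Without the DAM-like cluster, the log2 fold change between genotypes was 1.39 ± 0.46 for Bcl2a1d (adjusted p = 0.397), -0.50 ± 0.44 for Bcl2a1a, and 0.04 ± 0.48 for Bcl2a1b. The Bcl2a1a difference thus changed sign, and only that of Bcl2a1d, of the 3, kept an unadjusted p under 0.05 in edgeR's test. In that fit, 1096 of 10263 genes had an unadjusted p under 0.05. The share of low-ribosomal cells differed between the mice too, as given above. With these clusters left out, all 3 paralogs passed edgeR's test, at 3.40 ± 0.35 for Bcl2a1d (adjusted p = 0.00486), 2.16 ± 0.25 for Bcl2a1a (adjusted p = 0.00924), and 1.37 ± 0.26 for Bcl2a1b (adjusted p = 0.0355), beside 194 genes called in all, and the microglia that remained were 776, 617, and 81 in WT mice and 347, 15, and 513 in TgAppArcSwe mice. Without WT replicate 3, Bcl2a1d (adjusted p = 0.0121), Bcl2a1a (0.0458), and Bcl2 (0.0219) passed and 357 genes were called, while Bcl2a1b fell to 0.41 ± 0.22. Without TgAppArcSwe replicate 2, Bcl2a1d passed (adjusted p = 0.0258).

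Within low-ribosomal microglia, the clusters of few UMIs per cell described above, Bcl2a1d was the paralog whose genotypes stood apart. In these cells it stood at 5.91, 3.90, and 1.89 CPM in WT mice (3, 2, and 4 UMIs) and at 18.4, 18.1, and 23.2 CPM in TgAppArcSwe mice (18, 8, and 44 UMIs). The low-ribosomal cells fell into 2 clusters, and 1333 of the 1405 of WT replicate 3 were in one that held 2 and 9 cells of the other WT mice and 23, 11, and 65 cells of the TgAppArcSwe mice. The genotypes did not overlap for Bcl2a1d. The share of all genes without overlap was not computed in these cells, and over all microglia it was 17.8%. The log2 fold change of Bcl2a1d over both clusters was 2.81 ± 0.49 (adjusted p = 0.0932, edgeR), in a setting chosen after seeing the data. Bcl2a1a was the reverse, at 9.86, 17.5, and 13.2 CPM in WT mice and 6.12, 4.52, and 10.5 CPM in TgAppArcSwe mice, with overlapping values from 5, 9, and 28 against 6, 2, and 20 UMIs. As a percent of paralog UMIs in low-ribosomal microglia, Bcl2a1d took 3.66%, 1.38%, and 1.89% in WT mice and 6.14%, 6.84%, and 7.48% in TgAppArcSwe mice. In intact microglia, its level was 8.92, 13.03, and 12.5 CPM in WT mice and 25.1, 0, and 34.0 CPM in TgAppArcSwe mice, the 0 coming from 7 cells. In DAM-like microglia it stood at 41.0, 22.2, and 77.4 CPM in WT mice and at 203, 159, and 153 CPM in TgAppArcSwe mice, where the WT values rest on 2, 1, and 9 UMIs.

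**Figure D4:**
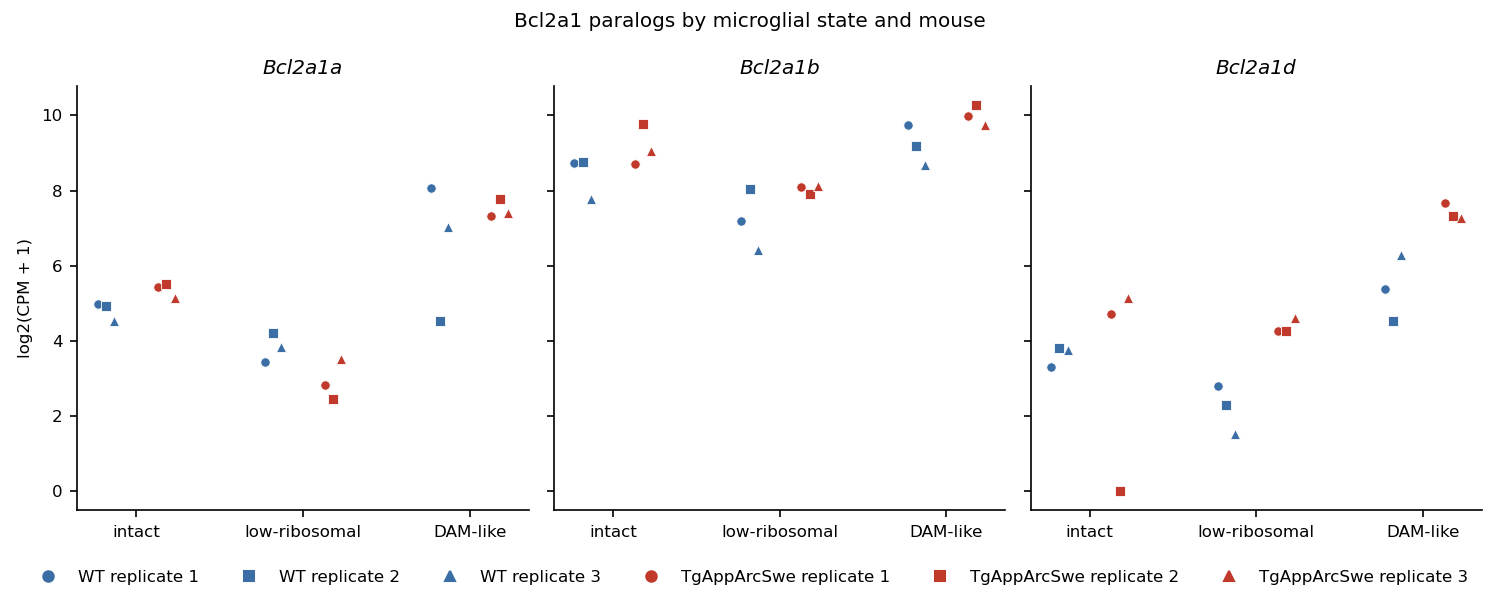
Points give log2(CPM + 1) of Bcl2a1a, Bcl2a1b, and Bcl2a1d in intact, low-ribosomal, and DAM-like microglia of each mouse, with WT mice in blue and TgAppArcSwe mice in red. In low-ribosomal microglia, Bcl2a1d of the TgAppArcSwe mice (18.1 to 23.2 CPM) lies above that of the WT mice (1.89 to 5.91 CPM), while Bcl2a1a does not.

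As a share of cells, the difference between genotypes depended on the microglia and mice taken. After each cell was thinned to 1000 UMIs, 29.5%, 30.7%, and 11.5% of the microglia of WT mice had at least 1 paralog UMI, against 32.4%, 24.7%, and 34.7% in TgAppArcSwe mice. The means were 23.9 ± 10.8% and 30.6 ± 5.24% (SD, n = 3 each), a difference of 6.70 percentage points with p = 0.5 in the exact two-sided permutation test, which cannot go below 0.1 with 3 against 3 mice. Without thinning, the shares were 67.0%, 65.8%, and 15.5% in WT mice and 45.7%, 39.3%, and 38.8% in TgAppArcSwe mice, and the difference turned to -8.17 points (p = 0.8, exact). The median UMIs per microglia were 5934, 5303, and 1237 in WT mice and 1518, 2001, and 1115 in TgAppArcSwe mice, and 1540 of 6871 microglia were under 1000 UMIs and left out of the thinned share. In endothelial cells, with a median of 3751 UMIs, the thinned share was 0.113% to 3.17% per mouse, far under that of microglia. Endothelial cells with a Cx3cr1 or Aif1 UMI had been left out first, and the share with them kept was not computed. Without low-ribosomal clusters, the thinned shares were 33.7%, 33.9%, and 23.7% in WT mice and 46.7%, 61.1%, and 53.2% in TgAppArcSwe mice, the second of the latter from 15 cells. These groups did not overlap, at 30.5 ± 5.83% and 53.7 ± 7.23%, a difference of 23.2 points with the smallest p the exact test allows, 0.1. Before thinning, DAM-like cells were 8 of 776, 11 of 617, and 24 of 81 of the microglia left in WT mice. In TgAppArcSwe mice they were 165 of 347, 8 of 15, and 478 of 513. The part of this makeup in the difference was not tested. Over all microglia but without WT replicate 3, the difference was 0.492 points.

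Lists of genes for NF-kB, microglial states, cell death, and stress and hormone responses were read off the same fit. Of 12 NF-kB target genes, 11 had a log2 fold change above 0 in microglia, with a median of 0.71 beside -0.02 over all genes, and none passed, with the smallest p at Tnf (1.48 ± 0.38, adjusted p = 0.258), Cd83 (1.18 ± 0.36, adjusted p = 0.391), and Il1b (2.13 ± 0.71, adjusted p = 0.474). Their summed level was 12969, 14836, and 3947 CPM in the microglia of WT mice and 18639, 11622, and 20898 CPM in those of TgAppArcSwe mice, so that WT replicate 3 was again the lowest. The list was shifted in vascular cells too, with 10 of 11 genes above 0 and a median of 0.55 in endothelial cells, and 10 of 11 and 0.53 in mural cells, and the genotype values of microglia and endothelial cells differed by a median of 0.016. Of 12 genes on a list of disease-associated microglia, 11 were tested, all 11 were above 0 with a median of 1.73, and 1 passed, Cst7, a cystatin, at 5.59 ± 0.62 (adjusted p = 0.0418). The 7 homeostatic microglial genes were all below 0 with a median of -0.42, and none passed. None passed either of the 16 mitochondrial, 8 death receptor, 8 p53, 11 dissociation stress, and 7 glucocorticoid response genes tested, and no gene of any of these lists passed between genotypes in endothelial or mural cells. In endothelial cells, 6 of 6 homeostatic genes tested were above 0 (median 0.59), and 6 of 8 of the disease-associated list (median 0.61). In mural cells, these were 6 of 7 (median 0.34) and 4 of 8 (median 0.0047). The part of microglial RNA in the vascular shifts of these lists and of the NF-kB list was not tested.

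The other members gave no genotype difference in microglia that passed the test. Bcl2 stood at 12.3, 10.6, and 37.6 CPM in WT mice and at 24.9, 40.4, and 33.6 CPM in TgAppArcSwe mice, which came to 0.88 ± 0.44 on the log2 scale (edgeR's adjusted p = 0.676). WT replicate 3 lay within the TgAppArcSwe range, and without it the value was 1.49 ± 0.24. In DAM-like microglia Bcl2 stood at 46.1, 97.8, and 49.6 CPM in TgAppArcSwe mice, against 8.97, 44.5, and 22.7 CPM in their intact microglia (55, 8, and 98 against 10, 2, and 4 UMIs), and without the DAM-like cluster the genotype value was 0.03 ± 0.50. Mcl1 (-0.07 ± 0.45), Bcl2l1 (0.01 ± 0.43), Bax (-0.05 ± 0.37), Bbc3 (-0.03 ± 0.48), Bak1 (-0.13 ± 0.33), and Bcl2l11 (0.26 ± 0.23) lay near 0. Their 95% intervals were wide, from -1.09 to 0.96 on the log2 scale for Mcl1 and from -0.26 to 0.78 for Bcl2l11, the narrowest. Of 11 other family genes, none passed, and Bid was the lowest at -0.70 ± 0.26 (adjusted p = 0.543).

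In endothelial cells, 8 of the 10 members could be tested, since Bcl2a1a and Bcl2a1d fell under the filter on low counts. None passed in edgeR's test, as for all 13623 genes tested (0% called, 589 genes at an unadjusted p under 0.05), and none of the members passed in DESeq2's test, which called 19 genes. Bak1 was the 1 member tested with non-overlapping genotypes, seen in 10% of all genes (4.11% higher and 5.89% lower in TgAppArcSwe mice), at the values given above, and its log2 fold change was 0.29 ± 0.099 (edgeR's adjusted p = 0.992, under 0.05 unadjusted). Bcl2a1b had the largest value, 1.89 ± 0.92 (adjusted p = 0.992), but 523 of its 775 endothelial UMIs came from TgAppArcSwe replicate 3, the mouse with the highest microglial marker share in these cells, and without that mouse the value was 0.09 ± 0.62. The remaining members lay between -0.33 ± 0.21 for Bcl2l1 and 0.20 ± 0.19 for Bbc3. The intervals were narrower than in microglia, from -0.25 to 0.28 for Bax and from -0.82 to 0.16 for Bcl2l1.

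In mural cells, 7 members were tested and the 3 paralogs fell under the filter. None passed, as for all 11306 genes tested (0% called, 333 genes at an unadjusted p under 0.05, and 0 with DESeq2), and none had non-overlapping genotypes, beside 8.35% of all genes (3.56% higher and 4.79% lower in TgAppArcSwe mice). Bak1 had the largest log2 fold change, 0.48 ± 0.26, from 8.91, 8.44, and 14.0 CPM in WT mice and 18.3, 12.9, and 12.3 CPM in TgAppArcSwe mice. Bbc3 followed at 0.45 ± 0.22, from 12.0, 17.6, and 12.6 CPM in WT mice and 21.0, 14.0, and 19.8 CPM in TgAppArcSwe mice. The other 5 lay between -0.20 ± 0.24 for Bcl2 and 0.13 ± 0.16 for Bcl2l11.

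**Figure D5:**
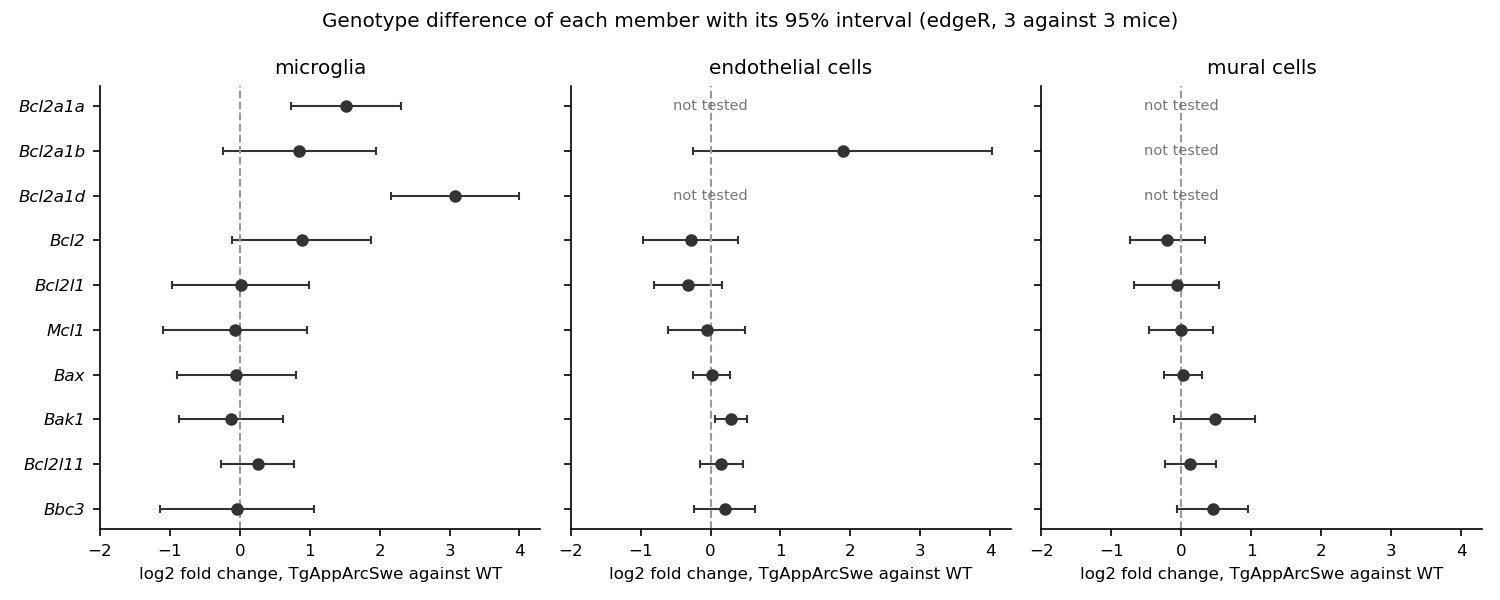
Points give the log2 fold change of TgAppArcSwe against WT mice for each member in microglia, endothelial cells, and mural cells, with the 95% interval of edgeR's fit, and members under the filter on low counts are marked as not tested. In microglia, Bcl2a1d at 3.07 and Bcl2a1a at 1.52 have intervals above 0, and in endothelial cells Bak1 does at 0.29, while none passes the adjustment over all genes.

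The genotype difference itself was compared between microglia and endothelial cells with the mouse as a block. None of the 10 members passed, as for all 14281 genes (0% called, 883 genes at an unadjusted p under 0.05 in edgeR's test). Bcl2 had the smallest p of the members, with a difference of 1.17 ± 0.37 on the log2 scale (adjusted p = 0.789 in edgeR's test, under 0.05 unadjusted), which was 0.27 ± 0.42 without the DAM-like cluster. For the 3 paralogs the difference was 0.11 ± 1.10 for Bcl2a1d, -0.49 ± 0.77 for Bcl2a1a, and -0.08 ± 1.14 for Bcl2a1b. Their genotype difference was thus not shown to be larger in microglia than in endothelial cells.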

How the data were processed

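The deposited values are whole-number UMI counts for every gene in every cell, which the authors made with Cell Ranger 7.0.0 (per the submitters' processing notes) on the mm10 transcriptome with mouse Clec7a and human NOTCH3 added. Reads that match several genes are left out of such counts. Cells with 500 to 4500 genes and under 10% mitochondrial UMIs were kept. They were clustered together (2000 variable genes without the Bcl2 family, 30 principal components, 20 neighbours, leidenalg 0.10.2 at resolution 1). A cluster was named from at least 3 of the markers of a type, mixed clusters were left unnamed (1347 cells), and no doublet caller was run. Endothelial cells in which Cx3cr1 or Aif1 had at least 1 UMI were set aside.

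Counts were summed per mouse and class and tested with edgeR 4.0.16 (TMM, filterByExpr, quasi-likelihood, adjusted p under 0.05 over all genes), with genotype as the term between mice and with the mouse as a block between classes. DESeq2 1.42.0 was the other tool. SEs are those of log2 fold changes. Each mouse was 1 replicate. Shares were thinned by hypergeometric expectation. The fits were tested on simulated counts.

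All 10 members are named. Of the other lists, counts are given, with the genes past the threshold and up to 3 with the smallest p, and the 5 most alike genes are named for the summed paralogs and for Bcl2l1. Where more genes passed than are named, the examples were picked after their values were seen. Members, lists, and tests were chosen with earlier results of these data known. Promoters came from a RefSeq table and coding sequences from an annotation of the same build.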

Additional observations from a re-analysis of the deposited data

How the results depend on the processing

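Of the member calls between classes, all but those on Bax and Bak1 were kept under every alternative tried. Bax between microglia and endothelial cells was lost under the stricter cell filter (-0.26, adjusted p = 0.125), and Bak1 between mural and endothelial cells under RLE size factors, and under resolution 2 (both -0.38), beside the 4 mice named above. Calls were gained between microglia and endothelial cells on Bcl2 without the DAM-like cluster (-0.53), and between microglia and mural cells on Bax without low-ribosomal clusters (0.44) and on Bak1 in low-ribosomal clusters only (-0.70). In microglia, where no member was called between genotypes (6 of all genes), 1 was called without the filter on low counts (48 of all genes), 3 without low-ribosomal clusters (194), 2 with DESeq2 (136), 1 with the replicate block (68), and 0 to 3 with 1 mouse left out (0 to 357), and all genes came to 3 in low-ribosomal clusters only and 1 without the DAM-like cluster. The settings with low-ribosomal clusters only and without the DAM-like cluster were chosen after seeing the data. In endothelial cells DESeq2 called 19 of all genes where edgeR called 0, and the difference between classes had 1 without the filter, 4 without low-ribosomal clusters, and 0 to 6 with 1 mouse left out. Whether replicate numbers pair the mice was not settled. Same-numbered mice correlated at 0.319, 0.0784, and 0.323 in microglia, 0.0715, 0.153, and 0.335 in endothelial cells, and 0.0191, 0.00261, and 0.368 in mural cells. All of these were positive, and the mice of replicate 3 were the highest pair in each class, but not every mouse correlated best with its own number. The block gave Bcl2a1d 3.02 (adjusted p = 0.0162) and no member call in the vascular classes.

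The values that changed sign were not past the threshold as reported, and the cause was not tested. The share of microglia with a Bcl2a1 UMI turned to -8.17 points unthinned. Genotype values in microglia came to -0.10 for Bcl2, -0.079 for Bcl2l11, -0.41 for Bcl2l1, 0.067 for Mcl1, and 0.062 for Bbc3 in low-ribosomal clusters only. They were -0.50 for Bcl2a1a and -0.21 for Bcl2l1 without the DAM-like cluster, and -0.038 for Bcl2l1 without the filter. Under the stricter cell filter they were 0.069 for Mcl1, 0.067 for Bbc3, 0.15 for Bax, and 0.21 for Bak1, without low-ribosomal clusters 0.13, 0.090, 0.35, and 0.18, and with the replicate block 0.085 for Mcl1 and 0.17 for Bbc3. In mural cells, the stricter filter gave 0.070 for Bcl2l1 and 0.010 for Mcl1, and the block 0.029 for Mcl1. Bcl2 between microglia and endothelial cells was 0.090 under the stricter filter and 0.039 without low-ribosomal clusters. Between microglia and mural cells, Bax was -0.064 without the filter, -0.90 in low-ribosomal clusters only (adjusted p = 2.9e-06), and -0.16 without the DAM-like cluster, and Bak1 was 0.032 under the stricter filter and 0.094 without low-ribosomal clusters. Bcl2a1d between mural and endothelial cells was 0.063 under the stricter filter and 0.022 at resolution 2.

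With 1 mouse left out, genotype values in microglia ranged from -0.27 to 0.66 for Bcl2l1, -0.48 to 0.20 for Mcl1, -0.46 to 0.26 for Bbc3, -0.32 to 0.20 for Bax, and -0.32 to 0.14 for Bak1. In endothelial cells Mcl1 ranged from -0.29 to 0.14 and Bax from -0.093 to 0.0998. In mural cells the ranges were -0.38 to 0.18 for Bcl2, -0.36 to 0.28 for Bcl2l1, -0.20 to 0.15 for Mcl1, and -0.027 to 0.12 for Bax. Between classes, Bcl2 ranged from -0.25 to 0.19 (microglia and endothelial cells), Bax from -0.057 to 0.23 and Bak1 from -0.32 to 0.082 (microglia and mural cells), and Bcl2a1d from -0.37 to 0.00033 (mural and endothelial cells). Depth limits Bak1 (8 to 72 UMIs per mouse), Bcl2 (23 to 136), and Bcl2a1d (17 to 352) in microglia, and Bcl2a1d in endothelial cells (0 to 27) and mural cells (7 over all mice).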

Other observations

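Bcl2a1c, the fourth A1 gene in the annotation, was listed in every library and had 13 UMIs in microglia, 2 in endothelial cells, and 1 in mural cells over all 6 mice, too few for any comparison. Perivascular macrophages (105 cells) had 182 paralog UMIs, of which 9.34% were Bcl2a1d and 2.75% Bcl2a1a, and 47 neutrophils had 33, of which 24.2% were Bcl2a1d.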
